A study of Homo sapiens with 16 samples.

Results

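The genes described here are 8 transcription factors that set and hold the identity of the intestinal epithelium: CDX1, CDX2, HNF4A, HNF4G, GATA4, GATA6, KLF4 and KLF5. They were taken by symbol from tables of read counts per gene, and all 8 were among the 26485 symbols listed. Polyadenylated RNA had been sequenced from SW480 and SW620, human colon cancer lines derived from a primary tumour and from a later lymph node metastasis of the same patient. There were 16 libraries in 4 groups of 4: SW620 with dnLEF1, SW620 with GFP, SW480 with dnLEF1 and SW480 with GFP. The labels describe dnLEF1 as inhibiting Wnt signalling and GFP as the mock control with high Wnt activity. All cells were at passage 6 and were grown in DMEM. The vector, its promoter, the time of expression and whether the cells were a clone or a pool are not stated in the sources used here. The labels do not say whether the libraries of a group came from separate cultures, so the p-values reflect sample-to-sample spread that could be technical.

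LEF1 belongs to the TCF/LEF family, which binds DNA and recruits beta-catenin to switch on Wnt target genes. A dominant negative form binds DNA but lacks the part that holds beta-catenin, and so keeps such genes from being activated. In the gut, CDX1 and CDX2 are homeobox factors that separate intestinal from gastric identity. HNF4A and HNF4G are nuclear receptors that drive the enterocyte programme. GATA4 and GATA6 are zinc finger factors of gut endoderm, GATA4 in the small intestine and GATA6 along the whole gut. KLF4 is known for differentiated surface cells and goblet cells, and KLF5 for dividing crypt cells. The question put by the design is what Wnt inhibition does to gene expression in each line.

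The libraries held 17181204 to 26153506 counts in genes. Levels are given below as CPM, counts scaled to library size on a scale shared by all 16 libraries, and as mean ± SD of 4 libraries. LEF1 itself, whose count includes any reads of the construct that match it, stood at 20.07 to 25.62 CPM in SW620 dnLEF1 libraries against 2.822 to 3.92 CPM in SW620 GFP libraries, and at 172.8 to 272.6 CPM in SW480 dnLEF1 libraries against 48.85 to 52.88 CPM in SW480 GFP libraries. The Wnt feedback gene AXIN2 fell in SW480 (log2 fold change -2.98 ± 0.07, adjusted p = 1.22e-12) and did not pass the test in SW620 (-0.06 ± 0.05, adjusted p = 0.607). NKD1, another feedback inhibitor of the pathway, gave the same pair of calls, at -3.17 ± 0.11 in SW480 (adjusted p = 1.91e-11) and -0.06 ± 0.08 in SW620 (adjusted p = 0.746). Of 12 markers of colon epithelium, 9 or 10 stood at 1 CPM or more in each group, with EPCAM at 311 to 516 CPM on average, while CEACAM5 averaged under 0.06 CPM in all 4 groups. SW620 GFP replicate 3 stood apart, with 50.5% of its reads in lines that name no gene, where no other library exceeded 24.3%. Without that library no call of a member changed apart from GATA6 in the difference between the lines (adjusted p = 0.0745).

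In SW480, 4 of the 6 factors with enough counts to be tested fell with dnLEF1: CDX2 by 89.5-fold, HNF4G by at least 30.7-fold, KLF5 by 2.90-fold and HNF4A by 1.46-fold. No member rose, GATA6 and KLF4 did not pass the test, and CDX1 and GATA4 were under the low-count filter. CDX2 and HNF4G passed that filter through their GFP level alone, and GATA6 through its dnLEF1 level. Calls here mean an adjusted p below 0.05 in edgeR's quasi-likelihood test, and by that rule 24.4% of the 14426 genes tested in SW480 were lower and 24.2% were higher. The median log2 fold change was -1.04 over the 6 members tested, with HNF4G at its fitted value or at its bound, and 0 over all genes tested. In these bulk samples, fewer cells that express a gene and less RNA per cell cannot be told apart.

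CDX2 (chromosome 13, 27960918 to 27969315, minus strand, on hg38 with GENCODE 44) had 4, 1, 4 and 3 counts in the SW480 dnLEF1 libraries, or 0.175, 0.0423, 0.168 and 0.139 CPM. In the SW480 GFP libraries it stood at 11.41, 12.2, 12.9 and 12.31 CPM. Every GFP library lay above every dnLEF1 library, as for 4 of the 6 tested members and, either way, 45% of all genes tested, and the coefficient of variation among the GFP libraries was 5.01%. The log2 fold change was -6.48 ± 0.21 (adjusted p = 1.77e-11). From the summed counts, 12 with dnLEF1 and 1103 with GFP, CDX2 was 93.2-fold lower with dnLEF1, with a 95% exact Poisson interval of 53.1 to 181 that covers counting error only. The SE of 0.21 was derived from the test statistic. It is smaller than this counting error and understates the uncertainty. CDX1 (chromosome 5, 150166778 to 150184558, plus strand), the paralogue of the crypt and a known Wnt target, had 0 counts in each SW480 dnLEF1 library and 1, 0, 2 and 0 counts in the SW480 GFP libraries. Both groups were at or under the floor of 3 counts, so no fold change is given for CDX1.

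Promoter windows are shown for CDX2, HNF4A and KLF5, 3 of the 4 members that fell, because dnLEF1 acts at DNA and these factors bind DNA themselves. Each window is the 250 bases before a RefSeq start on GRCh38.p14, read 5′ to 3′ on the gene's strand. The windows were searched on both strands for core letters of 5 factor families: CTTTGA for TCF/LEF, TTTATG for CDX, AGATAA for GATA, CAAAGTCCA for HNF4 and CCACACCC for KLF. The letters of HNF4 preceded by T also spell the reverse strand of the TCF/LEF core, so these motifs can overlap. Capitals mark TCF/LEF and GATA matches on either strand. The window of CDX2 is chr13:27969316-27969565, on the minus strand.
CDX2: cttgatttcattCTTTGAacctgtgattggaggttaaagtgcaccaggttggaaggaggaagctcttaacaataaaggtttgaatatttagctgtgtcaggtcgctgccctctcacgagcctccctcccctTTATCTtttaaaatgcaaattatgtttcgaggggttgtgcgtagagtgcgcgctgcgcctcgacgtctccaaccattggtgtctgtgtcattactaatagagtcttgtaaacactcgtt
It held 1 TCF/LEF match, whose first base lies 238 bases before the start, and 1 GATA match, whose first base lies 119 bases before it. Among 35116 promoter windows of this length, 11.2% held a TCF/LEF match and 9.17% a GATA match. No match to the CDX, HNF4 or KLF letters was found in the CDX2 window. Those letters occur in 9.64%, 0.325% and 2.97% of all windows.

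HNF4A is transcribed from an upstream and a downstream start, which counts per gene do not separate. The windows before both starts are shown because the gene fell as a whole. They are chr20:44355449-44355698 and chr20:44400989-44401238, on the plus strand, in that order.
HNF4A upstream: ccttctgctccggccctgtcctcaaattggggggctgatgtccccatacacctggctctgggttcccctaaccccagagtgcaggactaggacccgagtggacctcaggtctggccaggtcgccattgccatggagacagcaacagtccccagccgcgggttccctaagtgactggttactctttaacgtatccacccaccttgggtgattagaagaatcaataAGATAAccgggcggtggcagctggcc
HNF4A downstream: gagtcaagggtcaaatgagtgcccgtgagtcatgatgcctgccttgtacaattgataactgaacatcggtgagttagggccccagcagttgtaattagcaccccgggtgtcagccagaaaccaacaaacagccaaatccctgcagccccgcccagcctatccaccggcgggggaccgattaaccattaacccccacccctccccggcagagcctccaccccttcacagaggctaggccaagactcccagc
The upstream window held 1 GATA match, whose first base lies 26 bases before the start, and no other match. The downstream window held none of the 5 motifs. The antisense gene HNF4A-AS1, which lies within HNF4A, had 0 counts in all 16 libraries.

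The HNF4 genes both fell in SW480, by very different amounts. HNF4A (chromosome 20, 44355699 to 44432845, plus strand), the receptor mutated in a form of inherited diabetes and active across liver, kidney and gut, stood at 9.581, 10.67, 9.132 and 8.751 CPM in SW480 dnLEF1 libraries. In SW480 GFP libraries it stood at 11.22, 14.35, 14.28 and 16.23 CPM. The groups did not overlap, but GFP replicate 1 lay within 1 CPM of the highest dnLEF1 library. The log2 fold change was -0.55 ± 0.12 (adjusted p = 0.00147). HNF4G (chromosome 8, 75407914 to 75566834, plus strand), the paralogue expressed mainly in the gut, had 0 counts in all 4 SW480 dnLEF1 libraries. The SW480 GFP libraries held 14, 25, 23 and 29 counts, or 0.553, 1.12, 1.095 and 1.32 CPM. HNF4G was thus low in SW480 even with GFP and not detected with dnLEF1, where 0 counts allow up to 0.0327 CPM. Set against a floor of 3 counts over the group, it was at least 30.7-fold lower with dnLEF1 (adjusted p = 1.68e-05).

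The GATA factors showed no called change in SW480. GATA6 (chromosome 18, 22169589 to 22202528, plus strand), the member of the pair expressed along the whole gut including the colon, stood at 0.788, 0.889, 0.884 and 1.44 CPM in SW480 dnLEF1 libraries. In SW480 GFP libraries it stood at 0.908, 0.313, 0.286 and 0.593 CPM. GFP replicate 1 was above 3 of the 4 dnLEF1 libraries, so the groups overlapped. The log2 fold change was 0.89 ± 0.36 (adjusted p = 0.0535). Without SW480 GFP replicate 1 it was 1.31 (adjusted p = 0.0101), which passes the test, as it did with all libraries kept under limma voom (adjusted p = 0.0362) and in 1 fit of all 16 libraries (adjusted p = 0.0433). These values rest on 91 counts with dnLEF1 and 49 with GFP, and the strand setting of the counting is not given. The antisense gene GATA6-AS1 (0 to 5 counts per library) overlaps GATA6 only from 22169589 to 22169878. How reads in that stretch were assigned is not known without the strand setting. GATA4 (chromosome 8, 11676959 to 11760002, plus strand), the factor of the proximal small intestine, had 0 counts in all 8 SW480 libraries.

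Of the Krüppel-like factors, KLF5 fell in SW480 and KLF4 did not pass the test. KLF5 (chromosome 13, 73054976 to 73077541, plus strand), the growth-promoting factor of crypts, stood at 34.04, 46.77, 45.11 and 45.01 CPM in SW480 dnLEF1 libraries. In SW480 GFP libraries it stood at 119.9, 123.7, 119.2 and 133.8 CPM. The groups lay far apart, and dnLEF1 replicate 1 was the lowest of all 8. The log2 fold change was -1.54 ± 0.09 (adjusted p = 6.25e-09). KLF4 (chromosome 9, 107484852 to 107490482, minus strand), which restrains growth in differentiated cells, stood at 11.59, 17.73, 14.69 and 17.09 CPM in SW480 dnLEF1 libraries and at 17.69, 18.95, 18.85 and 19.33 CPM in SW480 GFP libraries. Its groups overlapped by dnLEF1 replicate 2 alone. The log2 fold change of KLF4 was -0.29 ± 0.12 (adjusted p = 0.0506), and it passed at -0.36 without dnLEF1 replicate 2 (adjusted p = 0.0258) and at -0.35 without dnLEF1 replicate 4 (adjusted p = 0.0366). With all libraries kept, KLF4 also passed with DESeq2 (adjusted p = 0.0449), limma voom (adjusted p = 0.0420) and no low-count filter (adjusted p = 0.0423).

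KLF5 has an upstream and a downstream start in RefSeq. Their windows are chr13:73054726-73054975 and chr13:73058755-73059004, on the plus strand, in that order, and are shown as those of a member that fell without any of the searched letters.
KLF5 upstream: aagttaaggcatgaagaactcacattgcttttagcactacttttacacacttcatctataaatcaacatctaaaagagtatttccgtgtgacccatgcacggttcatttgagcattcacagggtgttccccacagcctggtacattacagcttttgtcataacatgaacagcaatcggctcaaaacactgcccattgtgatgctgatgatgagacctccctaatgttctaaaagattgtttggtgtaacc
KLF5 downstream: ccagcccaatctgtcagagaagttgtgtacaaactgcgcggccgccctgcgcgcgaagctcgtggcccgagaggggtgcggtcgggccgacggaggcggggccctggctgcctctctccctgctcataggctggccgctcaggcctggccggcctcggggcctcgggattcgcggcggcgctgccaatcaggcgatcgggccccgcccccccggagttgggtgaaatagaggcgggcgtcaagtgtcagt
Neither window held a match to any of the 5 motifs, so no letter is in capitals. KLF4 and GATA6, which were not called in SW480, had none in their windows either.

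**Figure D1:**
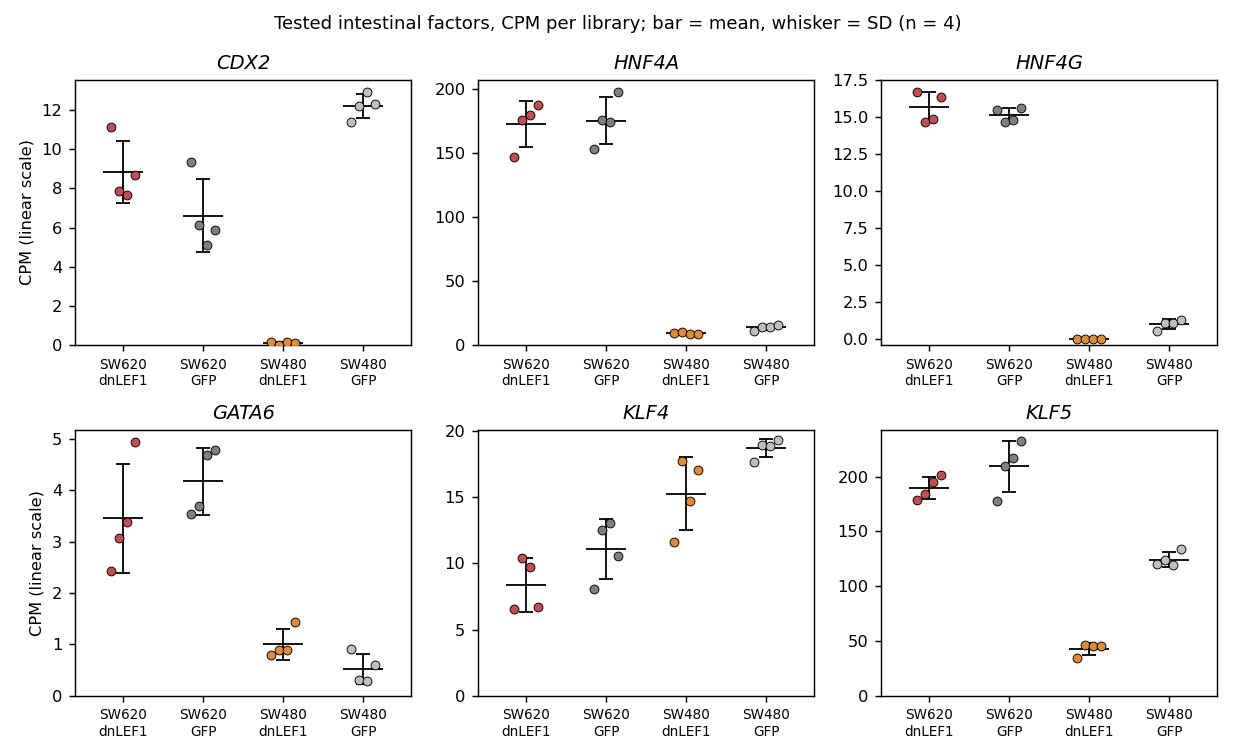
Points are the CPM of 1 library each, on a linear scale, for the 6 factors with enough counts to be tested; bars are means and whiskers SDs of 4 libraries. CDX2, HNF4A, HNF4G and KLF5 were lower in SW480 dnLEF1 than in SW480 GFP libraries without overlap, and the SW620 dnLEF1 and SW620 GFP libraries overlapped for all 6.

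In SW620 no member was called with dnLEF1 and the libraries of the groups overlapped for all 6 tested (13.7% of genes tested did not overlap), against 8.46% of the 13336 genes tested called either way, 6.03% higher and 2.43% lower. At an unadjusted p below 0.05, CDX2 and KLF4 passed. CDX2 stood at 11.13, 7.857, 7.669 and 8.667 CPM in SW620 dnLEF1 libraries and at 9.342, 6.134, 5.111 and 5.897 CPM in SW620 GFP libraries. Replicate 1 was the highest library of both groups, and SW620 GFP replicate 1 lay above 3 of the 4 dnLEF1 libraries. The log2 fold change of CDX2 was 0.41 ± 0.17 (adjusted p = 0.201), with the opposite sign to that in SW480. KLF4 stood at 6.528, 10.44, 9.754 and 6.718 CPM in SW620 dnLEF1 libraries and at 8.072, 12.54, 13.04 and 10.59 CPM in SW620 GFP libraries, with overlap. Its log2 fold change was -0.41 ± 0.18 (adjusted p = 0.205). Without SW620 GFP replicate 1, the highest SW620 GFP library for CDX2 and the lowest for KLF4 and KLF5, 3 members passed: CDX2 at 0.62 (adjusted p = 0.0137), KLF4 at -0.54 (adjusted p = 0.0444) and KLF5 at -0.22 (adjusted p = 0.0364).

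None of the other factors was called in SW620 with all libraries kept, and CDX1 and GATA4 had too few counts to be tested. HNF4A averaged 172.4 ± 17.7 CPM with dnLEF1 and 175.2 ± 18.1 CPM with GFP in SW620 (log2 fold change -0.02 ± 0.09, adjusted p = 0.924). HNF4G averaged 15.6 ± 1.01 CPM with dnLEF1 and 15.1 ± 0.465 CPM with GFP (0.05 ± 0.08, adjusted p = 0.808). Its 8 SW620 libraries lay between 14.67 and 16.67 CPM, the narrowest spread relative to level of the 6 tested members. KLF5 averaged 189.6 ± 10.2 CPM with dnLEF1 and 209 ± 23.0 CPM with GFP (-0.14 ± 0.08, adjusted p = 0.341). GATA6 averaged 3.45 ± 1.07 CPM with dnLEF1 and 4.17 ± 0.651 CPM with GFP (-0.26 ± 0.20, adjusted p = 0.549). CDX1 had 0 counts in all 8 SW620 libraries, which allows up to 0.0349 CPM with dnLEF1 and 0.0353 CPM with GFP. GATA4 had 1, 0, 0 and 0 counts in SW620 dnLEF1 libraries and 0, 2, 3 and 0 counts in SW620 GFP libraries, a ratio of 0.197 with a 95% exact Poisson interval of 0.00417 to 1.76. The SW620 medians over the members and over all genes tested were -0.08 and 0. The Wnt feedback genes AXIN2 and NKD1 were not called in SW620 either.

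The effect of dnLEF1 differed between the lines for 5 of the 6 members tested. As the SW620 effect minus the SW480 effect, in 1 edgeR fit of all 16 libraries, 4 members were called higher and 1 lower, against 16.2% and 12.3% of the 14926 genes tested. The difference was 6.89 ± 0.34 on the log2 scale for CDX2 (adjusted p = 3.06e-12) and 1.40 ± 0.13 for KLF5 (adjusted p = 2.98e-08). For CDX2 this SE too is smaller than the counting error of its few SW480 dnLEF1 counts. It was 0.53 ± 0.15 for HNF4A (adjusted p = 0.00998). HNF4G also passed (adjusted p = 1.22e-07), but the size of its difference depends on how 0 counts are handled. GATA6 was called in the other direction, at -1.14 ± 0.42 (adjusted p = 0.0482), and leaving out single libraries gave adjusted p-values up to 0.133, without SW480 dnLEF1 replicate 4. That call was lost without any 1 of 12 libraries: SW480 GFP replicates 2, 3 and 4, SW480 dnLEF1 replicates 2, 3 and 4, SW620 GFP replicates 2, 3 and 4, and SW620 dnLEF1 replicates 1, 2 and 3. KLF4 gave -0.12 ± 0.23 (adjusted p = 0.754). LEF1, with any reads of the construct, averaged 23.27 CPM in SW620 dnLEF1 and 246.4 CPM in SW480 dnLEF1. The line and the level of LEF1 therefore cannot be told apart in these differences.

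**Figure D2:**
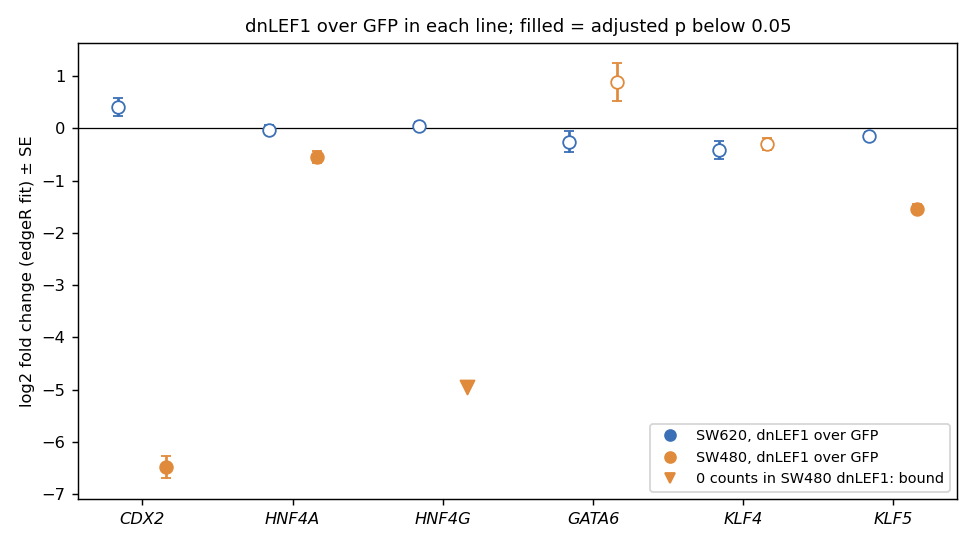
Log2 fold change of dnLEF1 over GFP from the edgeR fit of each line, with whiskers of 1 SE; filled symbols passed at an adjusted p below 0.05, and the triangle is the bound for HNF4G, which had 0 counts in SW480 dnLEF1. SW480 values reach -6.48 for CDX2, and all SW620 values lie between -0.41 and 0.41. The whisker of CDX2 in SW480 is narrower than its counting error.

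Without dnLEF1 the lines themselves differed in all 6 tested members, and for none of the 6 did the GFP libraries of the lines overlap. Between these lines 78% of 14350 genes tested were called, 37.7% higher in SW620 and 40.3% lower, and for 72.5% the libraries did not overlap. HNF4G was 14.9-fold higher in SW620 GFP than in SW480 GFP (log2 fold change 3.89 ± 0.17, adjusted p = 4.48e-11), and HNF4A was 12.5-fold higher (3.64 ± 0.11, adjusted p = 4.63e-13). GATA6 was 7.66-fold higher in SW620 GFP (2.94 ± 0.28, adjusted p = 2.17e-07) and KLF5 1.68-fold higher (0.75 ± 0.08, adjusted p = 4.67e-07). CDX2 and KLF4 had the opposite sign. CDX2 was 1.85-fold lower in SW620 GFP (-0.88 ± 0.15, adjusted p = 9.83e-05) and KLF4 1.70-fold lower (-0.77 ± 0.12, adjusted p = 5.39e-05). These line differences and the dnLEF1 effects share the GFP libraries.

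Ordered by level across the 4 groups, the members differed. CDX2 was highest in SW480 GFP, then SW620 dnLEF1, SW620 GFP and SW480 dnLEF1, and the SW620 groups overlapped. HNF4A and KLF5 both ran SW620 GFP, SW620 dnLEF1, SW480 GFP and SW480 dnLEF1, again with overlap between the SW620 groups alone. HNF4G ran SW620 dnLEF1, SW620 GFP, SW480 GFP and SW480 dnLEF1, with overlap between the SW620 groups. GATA6 ran SW620 GFP, SW620 dnLEF1, SW480 dnLEF1 and SW480 GFP, with overlap within each line. KLF4 ran SW480 GFP, SW480 dnLEF1, SW620 GFP and SW620 dnLEF1, and each neighbouring pair in that order overlapped.

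Set per kb of exon so that genes can be compared, KLF5 was the highest member in every group, at 51.5 ± 2.78 CPM per kb in SW620 dnLEF1, 56.9 ± 6.26 in SW620 GFP, 11.6 ± 1.59 in SW480 dnLEF1 and 33.8 ± 1.83 in SW480 GFP. HNF4A came next in SW620, at 17.0 ± 1.74 CPM per kb with dnLEF1 and 17.2 ± 1.78 with GFP. In SW480 the second place belonged to KLF4, at 4.17 ± 0.760 CPM per kb with dnLEF1 and 5.11 ± 0.193 with GFP. CDX2 came after KLF4 in SW480 GFP, at 3.47 ± 0.174 CPM per kb, against 0.0373 ± 0.0174 in SW480 dnLEF1, where GATA6 at 0.263 ± 0.0776 stood above it. The length of HNF4A, 10.17 kb, is the union over all annotated transcripts, so its value per kb would be higher on the length of any single transcript.

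**Figure D3:**
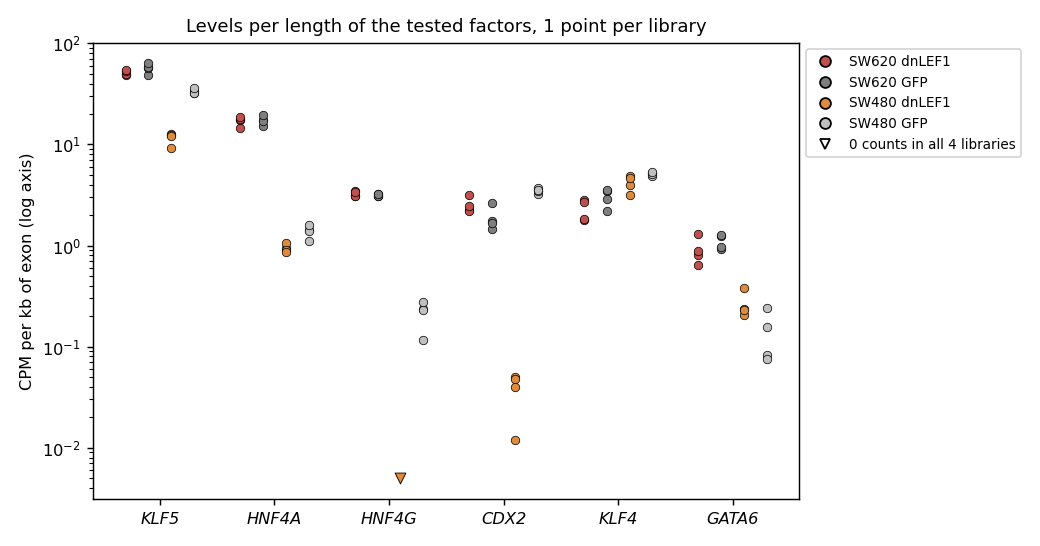
CPM per kb of exon on a log axis, with 1 point per library and the groups side by side within each factor. The triangle of HNF4G, in the colour of its group, marks 0 counts in all 4 SW480 dnLEF1 libraries. It has no height on the scale. KLF5 lies highest in every group, HNF4A and HNF4G lie lower in both SW480 groups than in SW620, and CDX2 drops in SW480 dnLEF1 to 0.0373 CPM per kb on average.

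Genes whose pattern over the 16 libraries lay closest to each member were found by the root mean square difference in log2 CPM, each gene centred on its own mean, among 14056 genes with at least 1 CPM in a group. For HNF4G the closest was LGR5, the intestinal stem cell receptor, at a difference of 0.251, with mean levels of 98.8 CPM in SW620 dnLEF1, 93.1 in SW620 GFP, 0.427 in SW480 dnLEF1 and 4.99 in SW480 GFP. MYRIP (0.308) and CCHE1 (0.323) followed. KLF5 had the closest match of any member, CASZ1, a zinc finger factor, at 0.095, followed by ABHD12B (0.159) and NUDT4 (0.164). CASZ1 averaged 28.2 CPM in SW620 dnLEF1, 32.9 in SW620 GFP, 6.62 in SW480 dnLEF1 and 18.7 in SW480 GFP. CDX2 had no close match: its nearest gene, the adhesion receptor ADGRL2, differed by 0.691 and stood at 2.10, 2.21, 0.0426 and 6.34 CPM in the same order of groups. F2RL3 (0.823) and DNM3 (0.873) came after it. A prior count of 2 was added before the log, which shrinks falls to few or no counts. In SW480 dnLEF1, HNF4G had 0 counts and CDX2 had 12. The distances of HNF4G and CDX2 from other genes, LGR5 included, therefore depend in part on this prior.

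The nearest genes to HNF4A were PPAP2B (0.184), KANK1 (0.19) and MTSS1L (0.21), and those to GATA6 were LMCD1 (0.378), CTRL (0.386) and SPRY1 (0.392). The nearest to KLF4 were C4orf32 (0.192), SMARCA1 (0.208) and PLXNA3 (0.224). No member was among the 3 nearest genes of another. The closest pairs of members were GATA6 with KLF5 at 1.03 and HNF4A with GATA6 at 1.05, and the most distant was HNF4G with KLF4 at 3.45. The points behind these measures share 4 groups, so a like pattern is mostly a like set of group means.

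Around each member that fell in SW480, some chromosomal neighbours were higher and others lower. Among the 20 nearest tested genes around CDX2, 5 were higher and 4 lower in SW480, with a median log2 fold change of 0.10. Over all genes tested in SW480, 24.2% were higher and 24.4% lower. The adjacent PDX1, a homeobox factor of pancreas and duodenum, was among the lower ones at -3.21, and FLT1 among the higher at 4.56. Around HNF4A 7 neighbours were higher and 5 lower, with a median of 0.02. Around HNF4G 4 were higher and 6 lower, with a median of -0.09, and the adjacent ZFHX4 had 0 counts with dnLEF1. KLF5 had the most neighbours lower, 10 against 6 higher, with a median of -0.17. They included KLF12, the adjacent member of its own family, at -0.72, and PIBF1 on the other side at -0.41. Around the uncalled GATA6 and KLF4, 2 and 3 neighbours were higher and 3 and 7 lower, with medians of -0.03 for both. GATA4 and CDX1, which were not tested, had neighbour medians of 0.02 and -0.13.

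**Figure D4:**
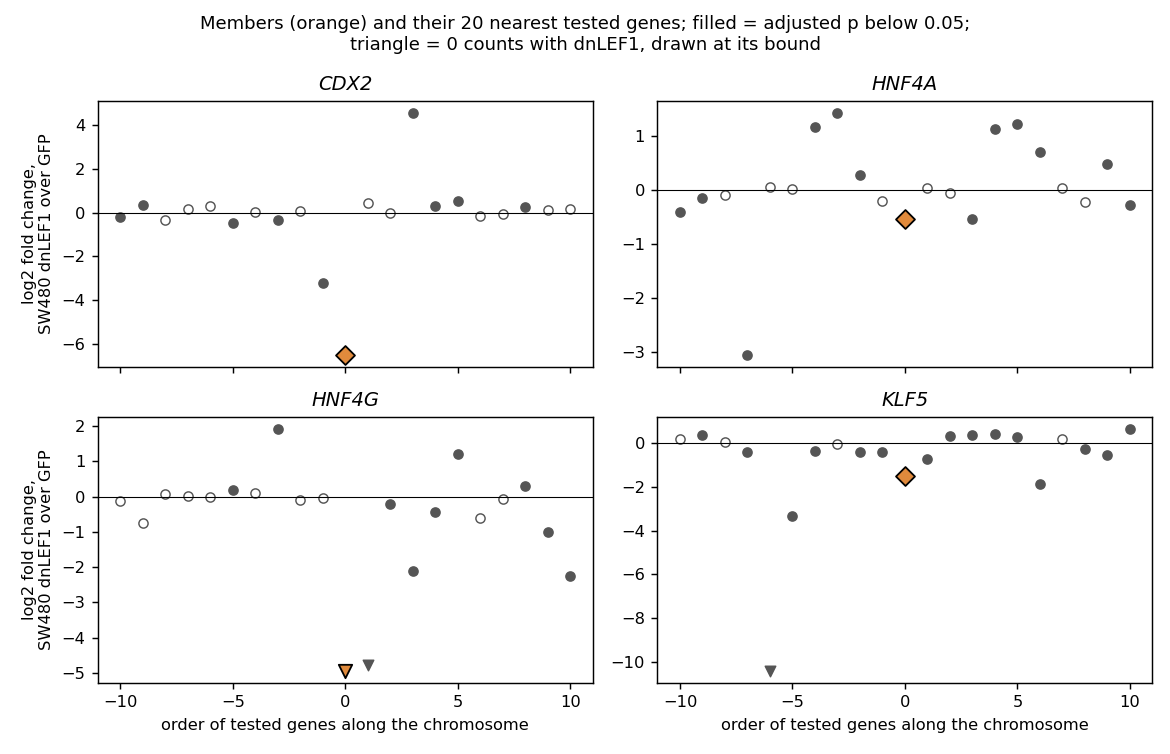
Log2 fold changes of SW480 dnLEF1 over SW480 GFP for the members that fell (orange) and the 10 tested genes on either side, in order along the chromosome with the member at 0; filled symbols passed at an adjusted p below 0.05, and triangles are genes with 0 counts in dnLEF1, drawn at their bound. CDX2 lies at -6.48 among neighbours with a median of 0.10, and KLF5 at -1.54 among neighbours with a median of -0.17.

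Other genes of the members' families and programmes were read from lists chosen with earlier results of these data known. Over all genes tested, 24.4% were lower and 24.2% higher in SW480, and 2.43% lower and 6.03% higher in SW620. Of the 20 paralogues in the CDX, GATA and KLF families, 14 were tested in SW480, of which 4 rose and 6 fell, with a median log2 fold change of -0.13 against 0 over all genes tested. KLF13, a regulator of lymphocyte and heart genes, fell 4.46-fold, to 18.9 ± 1.56 CPM in SW480 dnLEF1 against 84.6 ± 5.06 CPM in SW480 GFP (adjusted p = 3.03e-11). KLF12 fell 1.65-fold and GATA2, a blood and endothelial factor, 1.36-fold, whereas GATA3, known from T cells and breast, rose 2.13-fold. In SW620 none of the 12 tested paralogues was called. KLF13 there averaged 112 ± 8.55 CPM with dnLEF1 and 125 ± 4.93 CPM with GFP (adjusted p = 0.153).

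Among 20 other endoderm and epithelial factors, 4 of 13 tested rose and 5 fell in SW480, with a median of -0.08. FOXA2, a pioneer factor of endoderm, rose 3.11-fold, to 19.4 ± 1.11 CPM in SW480 dnLEF1 against 6.26 ± 0.840 CPM in SW480 GFP (adjusted p = 1.92e-08). PDX1 fell 9.26-fold and EHF, an epithelial ETS factor, rose 1.82-fold. In SW620, 2 of 12 tested factors rose and 1 fell. EHF rose 1.35-fold (adjusted p = 0.000950) and FOXA3 fell 1.20-fold (adjusted p = 0.0163). The SW620 median was 0.05, and of all genes tested in SW620 6.03% were higher and 2.43% lower. Leaving out SW620 dnLEF1 replicate 4 left 1 factor higher and 0 lower, leaving out SW620 GFP replicate 2 left 1 higher, and leaving out SW620 GFP replicate 1 gave 2 lower.

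Genes that textbooks give as CDX targets were sparse in both lines: of 16, only 5 passed the low-count filter in SW480 and 5 in SW620. In SW480, 3 of the 5 fell and 1 rose, with a median of -3.84. Over all genes tested there, 24.4% were lower and 24.2% higher, with a median of 0. CDH17 and TFF3 passed the low-count filter through their GFP level alone, and FUT2 through its dnLEF1 level alone. CDH17, the intestinal cadherin, was at 0 counts in SW480 dnLEF1 against 6.69 ± 3.04 CPM in SW480 GFP and at least 200-fold lower. VIL1, which bundles actin in microvilli, fell 14.3-fold, to 2.43 ± 0.506 CPM with dnLEF1 against 35.0 ± 4.61 CPM with GFP. The goblet cell peptide gene TFF3 was at least 31.1-fold lower, and the fucosyltransferase gene FUT2 rose 5.90-fold. CDH17 and VIL1 also fell in SW620, where CDX2 did not pass the test: CDH17 3.23-fold, to 0.246 ± 0.0989 CPM with dnLEF1 against 0.833 ± 0.0727 CPM with GFP (adjusted p = 0.00452), and VIL1 1.20-fold (adjusted p = 0.00601). In SW620, CDH17 passed the low-count filter through its GFP level alone, on 22 counts with dnLEF1 and 71 with GFP. Of all genes tested in SW620, 2.43% were lower and 6.03% higher. The number of genes of the list called higher in SW620 went from 0 to 1 in 4 of 14 alternatives, among them without SW620 dnLEF1 replicate 2.

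Of 16 textbook HNF4 targets, 4 were tested in SW480, of which 2 fell and 2 rose, with a median of -0.05. The shares over all genes tested there were 24.4% lower and 24.2% higher. TMPRSS2, an epithelial surface protease, fell 2.21-fold, and ACSL5, which activates long-chain fatty acids, rose 2.44-fold, as did the intestinal glucose carrier gene SLC5A1 by 2.06-fold. ACSL5 rose 2.11-fold in SW620 too, to 12.1 ± 1.88 CPM with dnLEF1 against 5.72 ± 1.36 CPM with GFP (adjusted p = 0.000577), while the microvillus cadherin CDHR2 fell 1.37-fold there (adjusted p = 0.0113). HNF4A and HNF4G were not called in SW620. The median of the 4 HNF4 targets tested in SW620 was 0. Of all genes tested in SW620, 2.43% were lower and 6.03% higher.

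**Figure D5:**
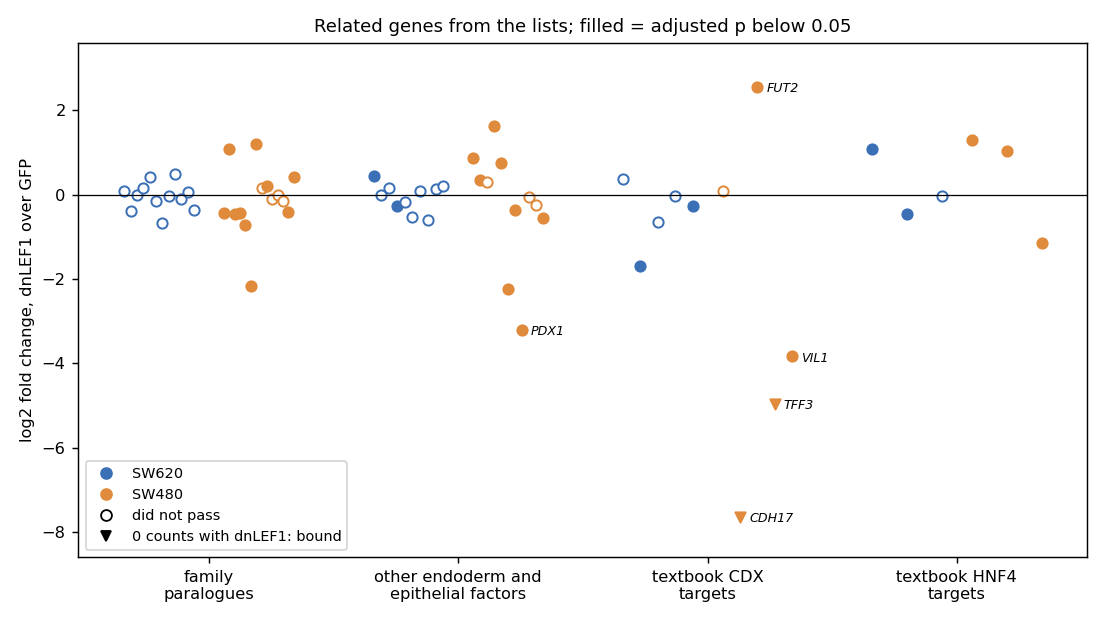
Log2 fold change of dnLEF1 over GFP for tested genes of 4 lists, without those not reported here, with SW620 to the left of SW480 within each list; filled symbols passed at an adjusted p below 0.05, and triangles mark genes with 0 counts in SW480 dnLEF1, drawn at their bound. PDX1 (-3.21) and VIL1 (-3.84) lie among the lowest SW480 values and FUT2 (2.56) is the highest.

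Genes of stomach, liver and pancreas, tissues next to the intestine in the embryo, were mostly under the low-count filter. Of 15, 4 were tested in SW480, of which 2 fell, 1 rose and 1 was not called: the stomach mucin genes MUC5AC and MUC6 fell and SOX2, the factor of foregut, rose 1.78-fold (adjusted p = 0.000197). The shares over all genes tested there were 24.4% lower and 24.2% higher. Both mucin genes passed the filter through their GFP level alone, so they entered this count as genes high in GFP. MUC5AC had 2 counts with dnLEF1 and 548 with GFP, a 278-fold difference with a 95% exact Poisson interval of 76.5 to 2300, and MUC6 fell 21.6-fold. In SW620 none of the 5 tested was called, where 8.46% of all genes tested were called either way.

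Markers of other cell types were read beside these changes. The summed level of 15 fibroblast, endothelial and blood cell markers ran between 4.30 and 5.27 CPM in SW620 dnLEF1, 5.90 and 7.83 in SW620 GFP, 18.9 and 42.0 in SW480 dnLEF1, and 6.32 and 9.76 in SW480 GFP. In SW480 dnLEF1 most of the sum was COL1A1, at 28.1 ± 9.88 CPM against 4.84 ± 0.765 CPM in SW480 GFP, while DCN, PTPRC, CD3E and HBB were at 0 counts. Of the 4 tested in SW480, COL1A1 and VWF rose and PDGFRB fell. PDGFRB passed the low-count filter through its GFP level alone, and VWF through its dnLEF1 level alone. The shares over all genes tested were 24.2% higher and 24.4% lower in SW480, and 6.03% higher and 2.43% lower in SW620. In SW620, COL1A1 fell 2.19-fold. The 12 colon epithelial markers summed to between 7480 and 8920 CPM in SW480 dnLEF1 against 11000 and 12800 CPM in SW480 GFP, with CLDN3, CLDN4, CDH1 and ELF3 higher and EPCAM, KRT8, KRT18, KRT19 and TSPAN8 lower. In SW620 they summed to between 8380 and 10700 CPM with dnLEF1 and 9680 and 12100 CPM with GFP, with CLDN3 and CLDN4 higher and CDH1 lower. The count of those higher in SW620 was 1 without SW620 GFP replicate 2 or 3, or without SW620 dnLEF1 replicate 2 or 4. The part of these markers in the changes of CDX2, HNF4A, HNF4G and KLF5 was not tested.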

How the data were processed

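Polyadenylated RNA of 16 libraries had been prepared with a TruSeq kit, per the labels' protocols. The authors deposited raw read counts for each gene. Per the submitters' processing notes the authors used Trimmomatic, TopHat2, HTSeq and DESeq2 with hg38. Versions, annotation and strand setting are not stated there. Reads placed at several positions are not in the gene counts. Lines that name no gene were dropped: they made up 50.5% of SW620 GFP replicate 3, against 20.0% to 24.3% of each other library.

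Groups came from the labels. Each comparison of 2 groups was fitted on its own 8 libraries with edgeR 4.0.16 in R 4.3.3 (TMM, filterByExpr, quasi-likelihood test), with Benjamini-Hochberg adjustment over all genes tested and a threshold of 0.05. The difference between lines was a contrast in 1 fit of 16 libraries. CPM use effective sizes of all 16 libraries. SEs were obtained by dividing the size of a log2 fold change by the root of its F statistic. For a large change with few counts in 1 group, as for CDX2 in SW480, such an SE can be smaller than the counting error. The fitting script was tested on simulated data. Libraries of a group differed by more than counting noise, with a chi-square per degree of freedom of 1.96 to 21, lowest between replicates 2 and 3 of SW480 GFP (1.96) and of SW480 dnLEF1 (2.27). Each was counted as a sample, which does not show that the cultures were separate. Alternatives were other scaling, DESeq2 1.42.0, limma 3.58.1 voom, no filter, a replicate block, 1 fit of 16 libraries and leaving out each library.

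The members and lists were chosen with earlier results of these data known. All members are named, with LEF1, AXIN2 and NKD1, up to 4 called genes per list and line with the smallest adjusted p, and the 3 nearest genes in pattern. Other genes are named to make up a count, or as adjacent or extreme neighbours, and the latter were chosen after their values were seen. Some genes of the lists count in their totals but are not reported here. Positions are from GENCODE 44, which placed 23161 of 26485 symbols. RefSeq promoter windows were searched for CDX2, HNF4A, GATA6, KLF4 and KLF5. Those of HNF4G and GATA4, both on chromosome 8, were left out, and none was found for CDX1.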

Additional observations from a re-analysis of the deposited data

Results flagged for a closer look

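Among 23 groups of 4 libraries in which a member had more than 10 counts, 2 held a library far from the other 3, where chance flags about 1 group in 20. For GATA6, SW480 dnLEF1 replicate 4 stood at 1.435 CPM, above the other 3 at 0.788 to 0.889 CPM. LEF1 was lowest in that library among the SW480 dnLEF1 libraries, at 172.8 CPM, and its part in the GATA6 value was not tested. For KLF5, SW480 dnLEF1 replicate 1 stood at 34.04 CPM, below the other 3 at 45.01 to 46.77 CPM. KLF4 was also lowest in that library, at 11.59 CPM.

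For 5 members the dnLEF1 effect differed between the lines by a test of the difference itself. The SW620 effect minus the SW480 effect on the log2 scale was 6.89 for CDX2, 7.53 for HNF4G, 1.40 for KLF5, 0.53 for HNF4A and -1.14 for GATA6. The GATA6 call was lost in 12 of 21 alternatives. The value of HNF4G is fitted against 0 counts in SW480 dnLEF1, depends on the prior count and is no bound.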

How the results depend on the processing

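The SW480 calls of CDX2, HNF4A, HNF4G and KLF5 kept direction and threshold in 14 of 14 alternatives, as did all 6 members between the GFP libraries of the lines. The line differences of CDX2, HNF4A, HNF4G and KLF5 did so in 21 of 21. Members called higher in SW480 went up by GATA6 to 1 under limma voom (adjusted p = 0.0362), the replicate block (0.0465), 1 fit of all 16 libraries (0.0433) and without SW480 GFP replicate 1, with a range of 0 to 1 over single libraries left out. KLF4 in SW480 passed in 6 of 14 alternatives, the replicate block among them (adjusted p = 0.0288), with adjusted p-values between 0.0258 and 0.121 over all 14. In SW620, leaving out single libraries gave 0 to 1 members higher and 0 to 2 lower, and the log2 fold change of HNF4A ran between -0.085 and 0.046, turning positive at 0.038 without SW620 GFP replicate 4 (adjusted p = 0.866) and at 0.046 without SW620 dnLEF1 replicate 1 (adjusted p = 0.820). GATA6 in the line difference gave 0 to 1 members lower over the libraries left out. Over all genes, SW480 gave 3013 to 3664 higher and 2976 to 3857 lower, and without the filter CDX targets lower in SW480 numbered 6 in place of 3.

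Samples of the same replicate number did not deviate together throughout: their correlations ran between -0.0748 and 0.221 in SW480, -0.00455 and 0.252 in SW620, and -0.011 and 0.148 between the GFP groups, so the number is no known pairing. With the replicate block SW620 had 1149 genes higher and 676 lower, against 804 and 324 without it, and members higher and lower came to 1 each, CDX2 at 0.43 (adjusted p = 0.00848) and KLF4 at -0.41 (adjusted p = 0.00611). In SW620, numbers 1, 3 and 4 correlated best with their own number, at 0.252, 0.123 and 0.148, and number 2 did not. In SW480 only number 1 did, at 0.221. Between the GFP groups numbers 1, 2 and 4 did, at 0.148, 0.0163 and 0.0907. The cause of the shifts with the block was not tested. In SW480, depth limits CDX1, GATA4, GATA6 and HNF4G, which had at most 91 counts per group.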
